A study of Mus musculus with 6 samples.

Results

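Cav1 and Cav2 encode caveolin-1 and caveolin-2, neighbours on mouse chromosome 6. Relative to library totals, both transcripts were counted at nearly 3 times the level in the kidney libraries labelled acute renal failure. The members are the 2 deposited rows that carry these names, out of 9519 genes that could be read in the count files. They were chosen by their counts in these same libraries, which were already known to differ between the groups, so their own difference is described below without a test. The data are RNA sequencing counts of kidney from C57BL/6 mice, the standard inbred laboratory strain, at postnatal day 21. In 3 libraries the diagnosis is healthy, with the title word control, and in 3 it is acute renal failure, a rapid loss of kidney function, with the title word treat. No allele, agent, dose or time after injury is given for either group, and the labels do not say how failure was brought about or whether each library stands for an animal of its own. P-values for other genes therefore measure the spread between these libraries, which may be technical.

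Caveolins are hairpin membrane proteins that build caveolae, the flask-shaped pits of the plasma membrane. Caveolin-1 forms the oligomers of the pit, and caveolin-2 joins it in hetero-oligomers and depends on it to leave the Golgi. Cavin proteins coat the pit from the cytosol, EHD ATPases hold its neck, and the pits flatten to buffer membrane tension and gather receptors and lipid. Caveolin-1 is abundant in endothelium, adipocytes, fibroblasts and smooth muscle, and in the kidney it is also known from the parietal epithelium of Bowman's capsule and the basolateral membrane of distal nephron and collecting duct cells.

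The libraries held 2873370 to 5710010 counts when labelled healthy and 5455886 to 6191479 when labelled acute renal failure, and the shallowest was healthy replicate 2. Of 21 listed genes that tubular injury is known to raise, 7 could be tested. Havcr1, Lcn2, Spp1 and Sox9 were among those that could not be read. The 7 tested went against the labels: all of them, Krt20, Cdkn1a and Gdf15 included, were lower in the acute renal failure libraries (edgeR adjusted p under 0.05, reached in that direction by 24.9% of all tested genes). Their summed level was 2079 to 2843 CPM (counts scaled to a common library total) there and 10964 to 17023 in the healthy ones. The groups are therefore called ARF-labelled and healthy-labelled, and each direction below holds for the labels as deposited. Kidney epithelial markers were counted in all 6 libraries. In most rows the printed gene name is not the gene whose GRCm38 exons the row covers, so genes were read by position, often over a short stretch of their exons. The rows named Cav1 and Cav2 are exceptions, since each covers its own gene. Their starts lie 1 base before those of the GRCm38 annotation, and no other row falls on their exons.

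Cav2 (ENSMUSG00000000058.6) spans chr6:17281185-17289115 and Cav1 (ENSMUSG00000007655.16) spans chr6:17306335-17341452 in GRCm38, both on the plus strand, with 17219 bases between the end of Cav2 and the start of Cav1. The Cav2 row covered 3332 of 3335 exon bases in 3 exons, and the Cav1 row covered 3087 of 3090 in 4. Because both genes were higher in the same libraries, the 250 bases before the first annotated start of each are shown, 5′ to 3′ on the plus strand, from RefSeq's GRCm38.p6 table. Capitals mark matches, on either strand, to the AP-1 motif TGANTCA and the GC box GGGCGG.
Cav2, chr6:17280935-17281184: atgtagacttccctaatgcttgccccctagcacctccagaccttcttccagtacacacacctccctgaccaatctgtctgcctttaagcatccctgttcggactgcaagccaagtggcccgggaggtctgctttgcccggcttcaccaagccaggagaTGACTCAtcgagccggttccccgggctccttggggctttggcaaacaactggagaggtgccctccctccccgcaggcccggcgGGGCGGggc
Cav1, chr6:17306085-17306334: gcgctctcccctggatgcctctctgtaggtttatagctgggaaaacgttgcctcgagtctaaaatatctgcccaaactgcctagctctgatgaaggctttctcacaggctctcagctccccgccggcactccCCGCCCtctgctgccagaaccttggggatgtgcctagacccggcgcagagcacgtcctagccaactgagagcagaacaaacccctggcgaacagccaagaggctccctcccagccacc
In Cav2 the AP-1 match began 92 bases and the GC box 9 bases before the start. In Cav1 the GC box match lay 118 bases before the start and was read on the reverse strand as CCGCCC.

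Of 32817 promoter windows of the same 250 bases, 6.75% held the AP-1 letters and 32.7% held the GC box. Both caveolin windows were richer in G and C (62.0% for Cav2, 59.6% for Cav1) than the median window at 52.4%. The TEAD motif GGAATG, present in 12.6% of windows, and the E-box CACGTG, present in 6.02%, were in neither window. CCAAT, in 33.8% of windows, matched the Cav2 window 182 bases before the start. TATAAA, in 12.4%, matched the Cav1 window 221 bases before its start, which is not the usual place of a TATA box. That match was read on the reverse strand as TTTATA. A downstream Cav1 start at chr6:17307640 had none of the 6 motifs in its 250 bases. The GC box was thus the only one of the 6 motifs shared by the first-start windows of both genes, and such matches are letters in a window rather than sites shown to be bound.

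Cav1 gave 722, 731 and 568 CPM in healthy-labelled replicates 1, 2 and 3. In ARF-labelled replicates 1, 2 and 3 it gave 1602, 2574 and 1570 CPM. The lowest ARF-labelled library therefore lay above the highest healthy-labelled one, and ARF-labelled replicate 2 stood above the other two of its group. The mean was 673 ± 91.5 CPM (SD, n = 3) against 1915 ± 571 (SD, n = 3), a ratio of 2.84. That ratio is of CPM by library total. The edgeR estimate with TMM scaling was smaller, a log2 fold change of 1.34 (SE 0.22), against 1.51 with total-count scaling.

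Cav2 gave 1177, 802 and 854 CPM in the healthy-labelled libraries. It gave 2685, 3298 and 2498 CPM in the ARF-labelled ones. The groups again did not overlap, with healthy-labelled replicate 1 and ARF-labelled replicate 2 the highest of their groups. The mean was 944 ± 203 CPM (SD, n = 3) against 2827 ± 419 (SD, n = 3), a ratio of 2.99. With TMM scaling the log2 fold change was 1.41 (SE 0.19), against 1.58 with total-count scaling.

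Counting error was small beside these spreads. The raw counts ran from 2062 to 14225 for Cav1 and from 2304 to 18225 for Cav2, which gives a counting coefficient of variation of 0.838% to 2.20% for Cav1 and 0.741% to 2.08% for Cav2. The spread among ARF-labelled libraries was many times this counting error. Without ARF-labelled replicate 2 the log2 fold change was 1.06 for Cav1 and 1.28 for Cav2.

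**Figure D1:**
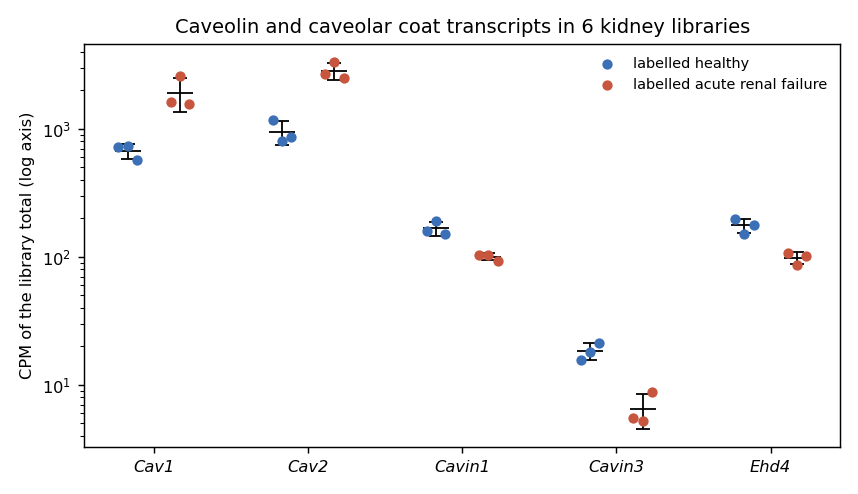
CPM on a log axis for Cav1, Cav2 and the 3 caveolar coat genes that were called lower, in 3 healthy-labelled libraries (blue) and 3 ARF-labelled libraries (red). Points are libraries, long bars are means and whiskers are SD over 3 libraries, and the caveolins lie higher in the ARF-labelled group while Cavin1, Cavin3 and Ehd4 lie lower in it.

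Per kilobase of covered exon, a scale that allows the genes to be compared, Cav2 was above Cav1 in all 6 libraries. Cav1 stood at 218 ± 29.6 CPM per kb (SD, n = 3) with the healthy label and 620 ± 185 with the ARF label. Cav2 stood at 283 ± 61.1 and 849 ± 126 CPM per kb. The ratio of Cav2 to Cav1 per kilobase was 1.51, 1.02 and 1.39 in healthy-labelled replicates 1 to 3 and 1.55, 1.19 and 1.47 in the ARF-labelled ones. These ratios overlapped between the groups, so no difference in their proportion was seen beyond the spread. In each group replicate 2 had the ratio nearest to 1. The log2 ratio of Cav1 to Cav2 differed by -0.12 between the groups, and by 0.06 when healthy-labelled replicate 2 was left out, so its sign rested on that library. The Cav1 row is 3444 bases long, with 3087 on annotated exons, and the Cav2 row 3335, with 3332. Scaled by row length, the mean log2 ratio was -0.52 with the healthy label and -0.64 with the ARF label. By covered exon bases it was -0.37 and -0.48. Cav2 was above Cav1 in all 6 libraries either way, but by a margin that depends on this choice.

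Both are abundant transcripts. Among 836 genes whose own-named rows cover at least 0.9 of their exon bases, of which 497 had counts, Cav1 ranked 39 and Cav2 ranked 27 from the top by CPM per kb in the healthy-labelled group. They ranked 10 and 7 in the ARF-labelled group. The median of the genes with counts was 14.8 CPM per kb and 16.1 CPM per kb, so this median hardly moved.

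A difference between these groups was common. Of 5246 genes tested with edgeR's quasi-likelihood test (Benjamini-Hochberg adjusted p under 0.05, "called" from here on), 2624 or 50.0% were called: 25.1% were higher with the ARF label and 24.9% lower. Of the deposited rows taken under their own names 46.2% were called. Groups that do not overlap in CPM were seen for 62.4% of the genes read by position, and for 40.0% with the ARF-labelled libraries higher. The members' lack of overlap is a pattern that many genes share, and nothing is read from it. The log2 fold change of Cav1 was above that of 93.0% of the tested genes and that of Cav2 above 93.7%, again as a description of genes chosen for it. The median log2 fold change of all tested genes was 0.01 with TMM and 0.19 when libraries were scaled by total count alone, where Cav1 stood at 1.51 and Cav2 at 1.58. Under that scaling the called genes split 63.3% higher, in place of 50.3%, so all changes are relative to the centre that TMM sets.

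Among the readable genes of the caveolar coat, Cavin1, Cavin3 and Ehd4 were lower with the ARF label. The list held 14 further coat and membrane-shaping genes, of which 7 could be read and 6 tested: 3 were called lower with the ARF label and the other 3 did not pass. Calls in either direction were thus as frequent as among all tested genes (50.0%), where 24.9% were called lower. Their median log2 fold change was -0.51, against 0.01 for all tested genes. Cav3, the muscle caveolin, Cavin2, Ehd1 and Ehd2 could not be read.

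Cavin1, the cavin without which caveolae are not formed, gave 159, 190 and 150 CPM in the healthy-labelled libraries and 104, 104 and 92.9 in the ARF-labelled ones. It fell by 0.91 on the log2 scale (SE 0.12, edgeR adjusted p = 0.000352). It was read over 397 of its exon bases. Cavin3, a cavin that binds caveolin-1 and protein kinase C delta, gave 15.8, 18.1 and 21.2 CPM with the healthy label and 5.50, 5.25 and 8.72 with the ARF label. It fell by 1.66 (SE 0.25, edgeR adjusted p = 0.000859), read over 640 exon bases. Ehd4, an ATPase of the caveolar neck that also acts in endosomes, gave 199, 152 and 176 CPM against 107, 85.8 and 102. It fell by 1.01 (SE 0.14, edgeR adjusted p = 0.000458), though over a short stretch of 165 bases. For each of the 3 genes every ARF-labelled library lay below every healthy-labelled one, the opposite order from Cav1 and Cav2. Groups without overlap and lower with the ARF label made up 22.4% of all tested genes. These 3 genes were called lower, and the remaining ones were not called, in each alternative analysis that could test them.

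Pacsin2, an F-BAR protein that bends the membrane at caveolae, had a log2 fold change of -0.04 (SE 0.12, edgeR adjusted p = 0.790), with 341 ± 12.8 CPM against 373 ± 33.7 (SD, n = 3). Dnm2, the dynamin that pinches off vesicles of several kinds, had -0.11 (SE 0.12, edgeR adjusted p = 0.491). Both of these signs turned when libraries were scaled by total count. Ehd3, a neck ATPase that is also a marker of glomerular endothelium, had 0.08 (SE 0.39, edgeR adjusted p = 0.886) at 9.31 ± 5.05 against 10.7 ± 2.78 CPM (SD, n = 3), and its sign turned when single libraries were left out. Cavin4, the muscle cavin, summed to 11 counts over the healthy-labelled libraries and to 8 over the others and was too low to test.

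Receptors and signalling proteins that are known to bind caveolin-1 or to gather in caveolae include growth factor receptors, kinases and lipid carriers. Of 36 listed, 16 were tested: 2 were called higher and 7 lower with the ARF label, with a median log2 fold change of -0.42. Among all tested genes 25.1% were called higher and 24.9% lower, and the split within the list was not tested. Abca1, the cholesterol exporter, rose from 512 ± 56.7 to 1065 ± 101 CPM (SD, n = 3), a log2 fold change of 0.88 (SE 0.12, edgeR adjusted p = 0.000569), and was read over all of its exons. Insr, the insulin receptor, had 0.40 (SE 0.14, edgeR adjusted p = 0.0385). It lost its call without any 1 of the 3 healthy-labelled libraries (0.37 to 0.39), without ARF-labelled replicate 3 (0.26) and with a replicate block (0.38). Both were named after their values were seen.

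Among those called lower, Itga5, the fibronectin receptor subunit, changed most, from 38.2 ± 7.96 to 4.71 ± 2.76 CPM (SD, n = 3), a log2 fold change of -3.16 (SE 0.35, edgeR adjusted p = 0.000176) over 149 bases. Cd36, a fatty acid receptor that caveolin-1 is known to hold at the cell surface, gave 231, 138 and 174 CPM with the healthy label and 115, 70.8 and 70.1 with the ARF label, a log2 fold change of -1.27 (SE 0.24, edgeR adjusted p = 0.00296). Src, the kinase that phosphorylates caveolin-1, had -1.07 (SE 0.18, edgeR adjusted p = 0.00145), though over 40 exon bases. Pdgfrb, at -0.91 (SE 0.29, edgeR adjusted p = 0.0307), lost its call without healthy-labelled replicate 2 (-0.71) or 3 (-0.86) and without ARF-labelled replicate 1 (-0.86) or 2 (-0.77), and with total-count scaling (-0.74). Nos3, the endothelial nitric oxide synthase that caveolin-1 inhibits, could not be read.

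Flotillins build membrane scaffolds of their own, apart from caveolae. Of 14 raft scaffold genes 5 were tested, and 4 were called lower and 1 higher with the ARF label, with a median log2 fold change of -0.53. Among all tested genes 24.9% were called lower and 25.1% higher. Flot2 gave 515, 433 and 477 CPM with the healthy label and 268, 254 and 292 with the ARF label, a log2 fold change of -0.98 (SE 0.12, edgeR adjusted p = 0.000264). Flot1 had -0.53 (SE 0.14, edgeR adjusted p = 0.0142) and Phb2, a mitochondrial prohibitin, -0.43 (SE 0.12, edgeR adjusted p = 0.0148). Both of those calls were lost with total-count scaling, at -0.35 and -0.25, and without ARF-labelled replicate 1, at -0.43 and -0.35. Stom, the red cell and epithelial stomatin, fell by 3.65 (SE 0.37, edgeR adjusted p = 0.000106) over 104 bases. Mal, a raft protein of apical transport in the distal tubule and collecting duct, rose from 1629 ± 270 to 3368 ± 296 CPM (SD, n = 3), a log2 fold change of 0.87 (SE 0.16, edgeR adjusted p = 0.00196).

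Clathrin coats form the other main endocytic pit. Of 28 coat and adaptor genes 16 were tested, with 2 called higher, 4 lower and 10 not called, where 50.0% of all tested genes were called. The median log2 fold change of the list was -0.20. With libraries scaled by total count, 3 were higher and 2 lower. Epn3, an epsin of epithelia, had a log2 fold change of 1.26 (SE 0.15, edgeR adjusted p = 0.000255) and was the one member close to the caveolins in size, over 170 bases. Cltb, the clathrin light chain B, fell by 0.83 (SE 0.11, edgeR adjusted p = 0.000517) over 101 bases, and Ap2a2, an adaptor subunit, fell by 0.52 (SE 0.11, edgeR adjusted p = 0.00415), or by 0.34 with total-count scaling. Hip1 had 0.70 (SE 0.23, edgeR adjusted p = 0.0337). Dnajc6 had -0.77 (SE 0.26, edgeR adjusted p = 0.0372), read over only 33 exon bases. The calls of Hip1 and Dnajc6 were by a small margin. Both lost their calls without healthy-labelled replicate 1 (0.47 and -0.80) or 3 (0.63 and -0.63) and without ARF-labelled replicate 1 (0.71 and -0.85) or 2 (0.65 and -0.74), and Dnajc6 also without ARF-labelled replicate 3 (-0.69), with total-count scaling (-0.60), with DESeq2 (-0.79), with no filter on low counts (-0.73) and with a replicate block (-0.76). The count of called genes in the list was 3, in place of 6, without healthy-labelled replicate 3 or ARF-labelled replicate 1 or 2.

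Caveolin-1 is known both as a target and as an upstream sensor of the YAP and TEAD pathway. Of 23 listed targets 6 were tested, and the median log2 fold change was -0.04. Of these, 2 were called higher and 1 lower, where 25.1% and 24.9% of all tested genes were. Ptpn14 was called higher at 0.48 (SE 0.11, edgeR adjusted p = 0.00622). Ajuba was called higher at 0.50 (SE 0.16, edgeR adjusted p = 0.0289), a call lost without healthy-labelled replicate 1 (0.41) or 3 (0.41) and without ARF-labelled replicate 2 (0.46) or 3 (0.47). Axl, a receptor tyrosine kinase, was lower at -1.59 (SE 0.23, edgeR adjusted p = 0.000722). Ajuba was read over only 68 exon bases and Axl over 104. The main targets Ccn1, Ccn2 and Ankrd1 could not be read.

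**Figure D2:**
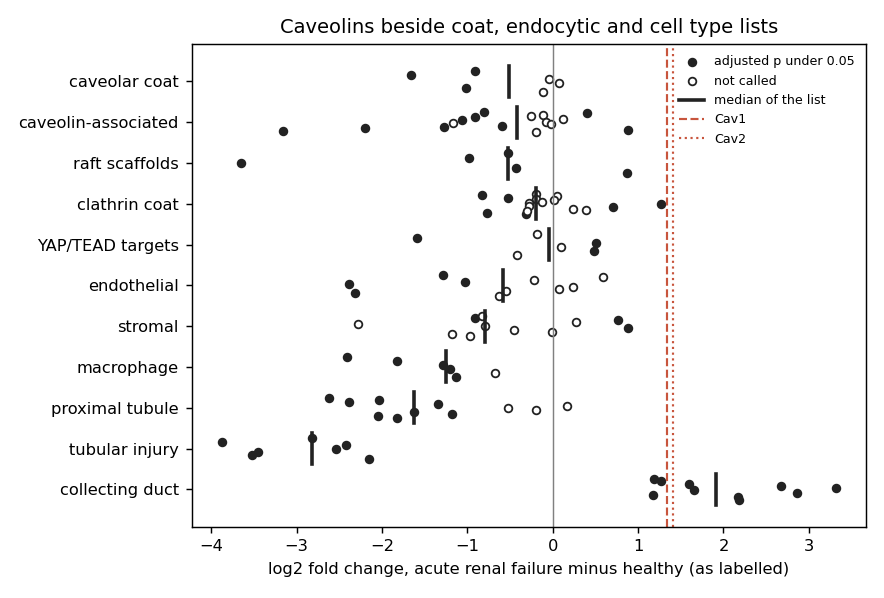
Log2 fold change (ARF-labelled minus healthy-labelled, horizontal axis) of each tested gene in 11 lists (vertical axis), filled where the edgeR adjusted p is under 0.05 and open otherwise, with a bar at each list's median and red lines at Cav1 (dashed, 1.34) and Cav2 (dotted, 1.41). The caveolar coat, raft and endothelial medians lie below 0, at -0.51, -0.53 and -0.59, and the collecting duct list is centred to the right of both caveolins at 1.91.

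Markers of the cell types in which caveolins are abundant were read beside them, since a bulk kidney library mixes cell types and fewer cells of a type cannot be told apart from less RNA per cell. Of 30 endothelial markers 10 were tested, and 4 were called lower and 6 not called, with a median log2 fold change of -0.59, where 24.9% of all tested genes were called lower. Without healthy-labelled replicate 1 the count called lower was 6, and without healthy-labelled replicate 2 it was 4 with 1 called higher. Pecam1, an adhesion molecule of endothelial junctions, fell from 109 ± 21.7 to 50.0 ± 4.42 CPM (SD, n = 3; log2 fold change -1.29, SE 0.16, edgeR adjusted p = 0.000305). Robo4, a guidance receptor of endothelium, had -2.39 (SE 0.29, edgeR adjusted p = 0.000263). Among those not called, Tek, the angiopoietin receptor, had 0.59 (SE 0.33, edgeR adjusted p = 0.174) and Vwf, the von Willebrand factor, 0.23 (SE 0.36, edgeR adjusted p = 0.621), both named after their values were seen. The summed level of the readable endothelial markers was 260 to 555 CPM with the healthy label and 235 to 297 with the ARF label, ranges that overlap. Their part in the caveolin difference was not tested.

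Stromal, adipocyte and capsule markers gave mixed values. Of 22 fibroblast, pericyte and smooth muscle markers 11 were tested, with 2 called higher and 1 lower (Pdgfrb, given above). Among all tested genes 25.1% were called higher and 24.9% lower. The list's median log2 fold change was -0.79. Its summed level was 839 to 2575 CPM with the healthy label and 676 to 1144 with the ARF label. Dcn, a collagen-binding proteoglycan, was called at 0.88 (SE 0.26, edgeR adjusted p = 0.0207) and Myh11, the smooth muscle myosin, at 0.76 (SE 0.28, edgeR adjusted p = 0.0475). Dcn lost its call without healthy-labelled replicate 3 (0.85) or ARF-labelled replicate 1 (0.81), and Myh11 without any 1 of 5 libraries, down to 0.45 without ARF-labelled replicate 1, and with DESeq2 size factors (0.75), a minimum of 100 exon bases (0.75) or a replicate block (0.72). Of 15 adipocyte markers 4 were tested; Slc2a4, the insulin-regulated glucose transporter, was called higher at 2.35 (SE 0.19, edgeR adjusted p = 3.99e-05) and Lep, the hormone leptin, lower at -3.55 (SE 0.94, edgeR adjusted p = 0.0131), with summed levels of 50.1 to 376 and 99.5 to 143 CPM. Healthy-labelled replicate 2, at 265 CPM of Lep against 17.5 and 48.5 in the other two, carried much of that value, which was -1.85 without it. Of 14 markers of parietal epithelium and mesothelium 4 were tested and 3 called lower, where 24.9% of all tested genes were. Cldn1, Wt1, Pax8, Upk3b and Lrrn4 could not be read, and Krt8 is also one of the tubular injury genes above. The summed level of the list was 5936 to 7854 CPM against 1378 to 1897. The keratins Krt8 and Krt7 gave most of that sum, Krt8 at 5368 ± 772 against 854 ± 185 CPM and Krt7 at 1152 ± 195 against 804 ± 119 (SD, n = 3). Msln, the tested gene of the list that was not called, went the other way, from 14.4 ± 9.62 to 26.2 ± 2.42 CPM (SD, n = 3). Its log2 fold change was 0.62 (SE 0.38, edgeR adjusted p = 0.208), and it was named after its values were seen.

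Collecting duct markers were higher in the same libraries as the caveolins. All 10 that could be tested, of 17 listed, were called higher with the ARF label, where 25.1% of all tested genes were. The list's median log2 fold change was 1.91. Its summed level was 4422 to 5206 CPM with the healthy label and 14596 to 17025 with the ARF label. Atp6v1b1 was near the floor, with 4 counts summed over the healthy-labelled libraries. Aqp2, Avpr2, Hsd11b2 and Fxyd4 could not be read. Scnn1g, a subunit of the epithelial sodium channel, rose from 107 ± 16.4 to 769 ± 38.7 CPM (SD, n = 3; log2 fold change 2.67, SE 0.15, edgeR adjusted p = 8.81e-06). Slc4a1, the anion exchanger of acid-secreting intercalated cells, had 2.86 (SE 0.27, edgeR adjusted p = 7.4e-05). Aqp6, an intracellular water channel of intercalated cells, gave 94.4, 162 and 104 CPM with the healthy label and 623, 555 and 651 with the ARF label, a log2 fold change of 2.18 (SE 0.20, edgeR adjusted p = 6.61e-05). Rhbg, an ammonium transporter, had 2.16 (SE 0.17, edgeR adjusted p = 3.78e-05). Their part in the caveolin difference was not tested.

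Most tested proximal tubule markers moved the other way. Of 21 listed 11 were tested and 8 called lower, where 24.9% of all tested genes were. The list's median log2 fold change was -1.62, and its summed level was 17007 to 25408 CPM against 7623 to 8626. Lrp2 (0.17), Hnf4a (-0.53) and Slc4a4 (-0.20) were not called. Slc34a1, the phosphate transporter of that segment, fell by 2.62 (SE 0.20, edgeR adjusted p = 3.31e-05) over 160 bases. Macrophage markers were also lower, with a summed level of 48.7 to 99.2 CPM against 30.7 to 35.3. Beside 24.9% of all tested genes, 5 of the 6 macrophage markers tested were called lower. Of these, C1qc (-1.21, edgeR adjusted p = 0.0382) and Ptprc (-1.13, edgeR adjusted p = 0.0156) lost their calls without healthy-labelled replicate 3 (-1.28 and -0.97) or ARF-labelled replicate 2 (-1.15 and -1.06), and C1qc also without healthy-labelled replicate 2 (-0.80) or ARF-labelled replicate 1 (-1.04) and with total-count scaling (-1.04). Of the 9 urothelial markers 2 were tested, Upk3a and Krt5. Upk3a was called higher at 1.86 (SE 0.28, edgeR adjusted p = 0.00081) over 222 bases, as were 25.1% of all tested genes. Krt5 was not called, at -0.57 (SE 0.43, edgeR adjusted p = 0.296). Trp63 was at 0 in every library, though read over only 110 of its 8391 exon bases. The part of these cell types in the caveolin difference was not tested.

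Of the tested genes around the caveolins, Tes fell and the other 3 were not called. Within 500 kb of either gene the annotation has 12 others, of which 9 were read and 4 tested, with a median log2 fold change of -0.35. Among all tested genes 50.0% were called and 24.9% were called lower, so 1 lower of 4 is near that share. Tes, whose start lies 241 kb before that of Cav1 and which encodes testin, a LIM-domain protein of focal adhesions, gave 786, 618 and 649 CPM with the healthy label and 340, 370 and 315 with the ARF label. It fell by 1.18 on the log2 scale (SE 0.14, edgeR adjusted p = 0.000251), with no overlap between the groups. Groups without overlap and lower with the ARF label made up 22.4% of all tested genes. Met, the hepatocyte growth factor receptor 157 kb after the Cav1 start, had 2953 ± 189 against 2758 ± 95.5 CPM (SD, n = 3) and a log2 fold change of -0.27 (SE 0.11, edgeR adjusted p = 0.0777). Capza2, an actin capping subunit 330 kb after it, had -0.32 (SE 0.13, edgeR adjusted p = 0.0609). With total-count scaling Met stood at -0.10 and Capza2 at -0.15. Tfec, a transcription factor 473 kb before it, had -0.37 (SE 0.33, edgeR adjusted p = 0.389). Without ARF-labelled replicate 1 it was called at -0.89. The count of called neighbours was 1, and it was 3 with DESeq2, which added Met and Capza2, 3 without healthy-labelled replicate 2 and 2 without any 1 ARF-labelled library.

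Gm15581 is an antisense gene that spans both caveolins, at chr6:17206823-17385604 on the minus strand. It had 0 counts in all 6 libraries over its own exons. Counting ignored strand, so a transcript from the minus strand that lies on caveolin exons cannot be told apart from the caveolins.

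**Figure D3:**
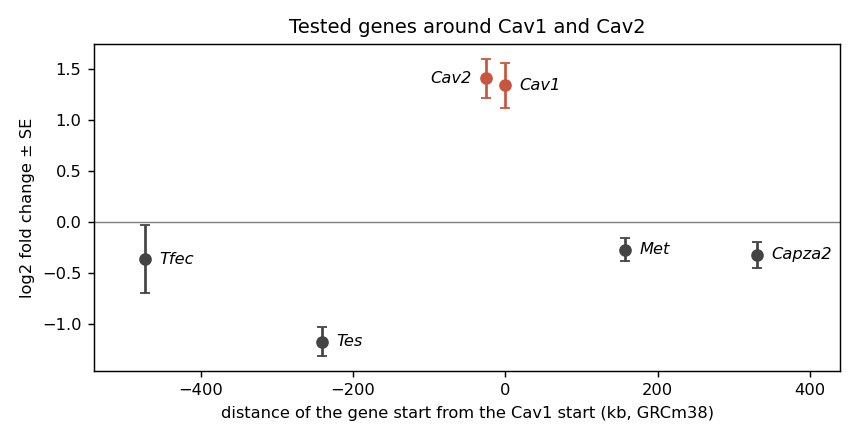
Log2 fold change (ARF-labelled minus healthy-labelled) ± SE of Cav1, Cav2 and the 4 tested neighbours, against the distance of each gene's start from the Cav1 start in kb. Cav2 and Cav1 stand at 1.41 and 1.34, and the genes on either side lie between -1.18 (Tes) and -0.27 (Met).

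The likeness of each caveolin's profile to other genes was measured as the root mean square difference of log2 CPM, centred on the gene's mean, over the 6 libraries. It was taken for 3331 tested genes read over at least 200 exon bases and with a mean of at least 5 CPM. The nearest to Cav1 were Wrap73 (0.136), Zfp882 (0.149), Kifc3 (0.151), Laptm4b (0.157) and Dcun1d2 (0.169). Kifc3, a minus-end kinesin of epithelial junctions, went from 60.2 ± 10.0 to 198 ± 74.1 CPM (SD, n = 3) and shared the high value of ARF-labelled replicate 2. Laptm4b, a lysosomal membrane protein, went from 171 ± 33.5 to 469 ± 127 CPM (SD, n = 3). The order is a description of 6 libraries in which the group difference sets most of each profile.

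The nearest to Cav2 were 2810021J22Rik (0.113), Gstm2 (0.116), Kcnq1ot1 (0.123), Atp6v0e (0.123) and Atp6v1a (0.127). Gstm2, a glutathione transferase, went from 714 ± 178 to 1948 ± 247 CPM (SD, n = 3). Atp6v0e and Atp6v1a are subunits of the vacuolar proton pump, at 83.3 ± 13.1 against 251 ± 32.6 and 578 ± 95.6 against 1529 ± 246 CPM (SD, n = 3). Kcnq1ot1 is an antisense RNA read without strand, so reads of Kcnq1 on the same bases cannot be told apart from it. At a difference of 0.219, Cav2 was 31st in the order for Cav1 and Cav1 was 57th in the order for Cav2, so neither caveolin was the other's nearest gene. The genes differed most in healthy-labelled replicate 2, where the centred log2 CPM was -0.55 for Cav1 and -0.95 for Cav2.

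**Figure D4:**
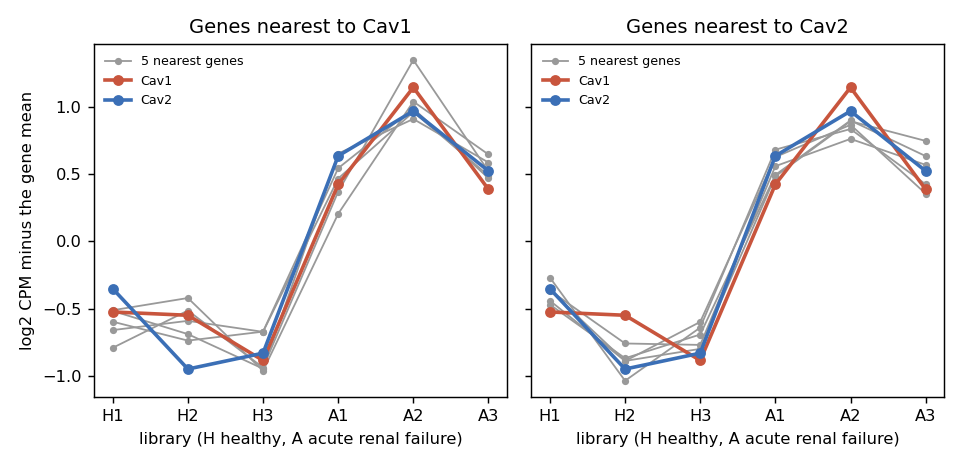
Centred log2 CPM (vertical axis) in the 6 libraries (H, healthy-labelled; A, ARF-labelled; lines join libraries of 1 gene and have no order in time) for Cav1 (red), Cav2 (blue) and, in grey, the 5 genes nearest to Cav1 (left) and to Cav2 (right). Cav1 and Cav2 part most in H2, at -0.55 and -0.95, and both peak in A2, at 1.14 and 0.97.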

How the data were processed

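Kidney RNA was extracted with Trizol and sequenced from TruSeq RNA libraries made from 1 ug of total RNA, per the labels' protocols. The authors deposited raw counts per gene row for each library. Per the file headers, featureCounts 2.0.1 counted read pairs on exons and summed them by gene name, with both ends aligned, chimeric pairs dropped and strand ignored. Bowtie 0.12.2 and mm9 are named in the submitters' processing notes and not in the headers. The submitters' design text names BWA and TopHat instead. The sources used here therefore conflict, and the aligner and build behind these counts are not known.

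Each row was intersected (bedtools 2.31.1, Python 3.11.15, pandas 2.3.3) with GENCODE M21 exons on GRCm38. A row went to the gene that held a share of 0.9 or more of the exon bases under it, with 25 bases as the minimum, and rows of a gene were added: 12401 of 53546 rows, 9519 genes and 63.0% of counts. A short stretch can carry reads of an overlapping gene, and a near-identical copy can share reads. CPM was computed from each library's total over all rows. The test was edgeR 4.0.16 (R 4.3.3; glmQLFit, TMM, filterByExpr, group as the one term, two-sided, Benjamini-Hochberg), which was tested on simulated data; an SE is the log2 fold change divided by the square root of F. Log2 CPM used a prior count of 2.

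The members and the 14 gene lists were chosen with earlier results of these data known. Genes were named by a rule: the members, tested coat genes and neighbours, up to 5 called genes of largest change in each other list, and the 5 nearest profiles. Abca1, Insr, Tek, Vwf, Msln, Lrp2, Hnf4a, Slc4a4 and Krt5 were added after their values were seen. Some genes that the rule names are not reported here. Alternatives were DESeq2 1.42.0, other scalings, filters and rows, a replicate block, and leaving out each library. Mean ± SD is over n = 3 libraries. Results are log2 fold changes, ARF-labelled minus healthy-labelled.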

Additional observations from a re-analysis of the deposited data

How the results depend on the processing

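Cav1 and Cav2 were higher in the ARF-labelled libraries under every alternative run, with log2 fold changes of 1.06 to 1.51 for Cav1 and 1.27 to 1.60 for Cav2. Leaving out 1 library at a time gave 1.06 to 1.48 and 1.27 to 1.60. The log2 ratio of Cav1 to Cav2 ranged from -0.23 to 0.06 in the same way. The 3 lower coat genes were called in each alternative that could test them.

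Same-numbered libraries did not deviate together: their deviations from the group means had correlations of -0.07, -0.22 and -0.29. Deviations from a mean of 3 libraries constrain one another, so these values cannot decide whether the libraries were paired. With a replicate block, Cav1 stood at 1.30 and Cav2 at 1.42, and 2288 genes were called in place of 2624. Under the block Insr (0.38), Dnajc6 (-0.76) and Myh11 (0.72) lost their calls.

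The deposited rows under their own names gave 5045 called of 10919. Clathrin genes called ranged from 3 to 6 when 1 library was left out, and neighbours called from 1 to 3; DESeq2 called 3 neighbours and no filter on low counts 2. Signs turned for coat genes that were not called: with total-count scaling Pacsin2 was 0.13 and Dnm2 0.064, and with no filter Pacsin2 was 0.0045. Leaving out 1 library at a time gave Pacsin2 -0.098 to 0.050 and Ehd3 -0.24 to 0.54. The cause was not tested. Genes read over few bases, and the low total of healthy-labelled replicate 2, limit small differences. Of the single-gene results under alternatives, 789 kept their direction and their side of the threshold, 48 lost their call, 4 gained one and 7 turned sign without being called.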
